A study of Mus musculus with 18 samples.

Results

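The glycolysis and hypoxia genes are 32 genes chosen by name out of the 55486 genes in the deposited table. They comprise 3 glucose and lactate transporters, 9 enzymes of upper glycolysis, 2 enzymes of fructose bisphosphate signaling, 6 enzymes of lower glycolysis, 4 genes at the exit of pyruvate (lactate dehydrogenases and pyruvate dehydrogenase kinases) and 8 further genes known as hypoxia targets. All 32 were found and passed the filter on low counts. A second entry of the table carries the symbol Aldoa (ENSMUSG00000114515). It held 103 counts over all libraries, did not pass the filter and was left out.

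Glycolysis splits glucose into pyruvate in the cytosol, and cells that keep little pyruvate for their mitochondria reduce it to lactate and export it. Under low oxygen the prolyl hydroxylases of the Egln family stop marking HIF alpha subunits for destruction, and HIF then binds short core motifs near many glycolytic genes and near its own inhibitors, among them Egln3. In fibroblasts these genes also answer to growth factors, and lactate export is a known trait of activated fibroblasts in tumors.

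RNA sequencing was done on cultured normal fibroblasts (NFs) from mammary glands of FVB/n mice. The cells had been depleted of epithelial, immune and endothelial cells by sorting, were split by the surface peptidase CD26 and were kept in conditioned medium for 7 days. Replicates 1 to 3 are CD26- cultures in control conditioned medium and replicates 4 to 9 are CD26- cultures in tumor conditioned medium (CM). Replicates 10 to 12 and 13 to 18 are the CD26+ cultures in the same order. Tumor CM came from 6 independent cell lines from mammary tumors of mice that model invasive lobular carcinoma, in which a Wap-driven Cre recombines floxed alleles in the mammary epithelium, Cdh1 among them, and each line supplied 1 culture of each cell type. Per the study's methods, NF donors were female mice without Cre that carried unrecombined floxed alleles or the mTmG reporter (which of these is not given per culture), several mice were pooled for a sort, and CD26 fell in culture. The tumor lines grew in a medium with EGF, insulin and cholera toxin, and the make-up of the control conditioned medium is not given in the sources used here, so that the medium and the tumor cells cannot be told apart. Nothing in the labels ties a library to a separate animal, so p-values measure the spread between these cultures and, for CM, between lines.

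Total counts ran from 9725723 to 14585349 per library. The 32 genes took between 0.806% and 0.84% of the counts in the 6 control libraries and between 0.877% and 1.18% in the 12 CM libraries. The 9 fibroblast markers were present in all libraries and moved with the groups. They summed to 16500 to 18500 CPM (counts scaled to a common library size with TMM) in CD26- controls, 9810 to 21500 CPM in CD26- CM, 62500 to 79500 CPM in CD26+ controls and 29200 to 52100 CPM in CD26+ CM. Of the 9, 8 were higher in CD26+ than in CD26- controls (median log2 difference 1.74), and with CM 3 were higher and 4 lower in CD26+ NFs and 4 higher and 1 lower in CD26- NFs. All 3 tested adipocyte genes were higher in CD26+ NFs, with a median log2 difference of 3.89 in controls and 4.32 in CM, and the 5 listed genes summed to at most 89.1 CPM. Further, immune markers summed to at most 29.7 CPM and endothelial markers to at most 8.22 CPM. The 8 epithelial markers summed to between 2940 and 4850 CPM in CD26- libraries and between 666 and 1610 CPM in CD26+ libraries, and 7 of the 8 were lower in CD26+ NFs in both media. Of 9 proliferation genes, 7 fell with CM in CD26+ NFs, where the sum was 902 to 955 CPM in controls and 311 to 537 CPM in 5 CM libraries, but 998 CPM in replicate 18. Of all tested genes, 13.4% were lower with CM in CD26+ NFs, and between the cell types in control medium 25.0% were higher and 25.4% lower in CD26+ NFs. Replicate 18, given CM of line 13-MCB-138, also had the smallest rise of many genes described here. Of 8 tested skeletal muscle genes, 7 were higher with CM in CD26- NFs, with sums of 54.5 to 160 CPM against 50.2 to 78.6 CPM. In bulk RNA a change in the share of such cells and a change per cell cannot be told apart, and the part of these markers in the results below was not tested.

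With tumor CM, about as many of these genes rose in CD26- as in CD26+ NFs in the fit of all libraries. In CD26- NFs 16 of the 32 rose, against 7.88% of all 14273 tested genes, and 2 fell, against 7.28%. In CD26+ NFs 17 rose, against 15.2% of all tested genes, and 4 fell, against 13.4%. A call here is an FDR under 0.05, where FDR is the Benjamini-Hochberg adjusted p of the quasi-likelihood test of edgeR over all tested genes. With fits of the 2 groups compared alone, 21 rose and 2 fell in CD26- NFs, with 16.3% of all genes called. In CD26+ NFs such a fit gave 16 that rose and 3 that fell, with 24.4% of all genes called. The median log2 fold change over the 32 genes was 0.32 in CD26- NFs and 0.35 in CD26+ NFs, beside 0.01 and 0 over all tested genes. Most changes were modest. Beyond a log2 fold change of 2 in either direction, the size the study asked for, there was no member in CD26- NFs, where edgeR and DESeq2 called 18 and 20 at the FDR alone and 22 had an unadjusted p under 0.05, and 0.904% of all genes were past that limit. In CD26+ NFs 1 member, Egln3, was past it, against 2.01% of all genes.

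Between the cell types, 11 genes rose with CM in both, 2 fell in both, 5 rose and were called in CD26- NFs alone, 6 rose and 2 fell with a call in CD26+ NFs alone, and 6 were called in neither. Over all tested genes the same patterns held 4.13%, 2.41%, 3.59%, 10.8%, 10.9% and 63.2%. These counts do not show that the cell types differ, which is the subject of a separate test below. The map of all 32 genes by library shows the pattern.

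**Figure D1:**
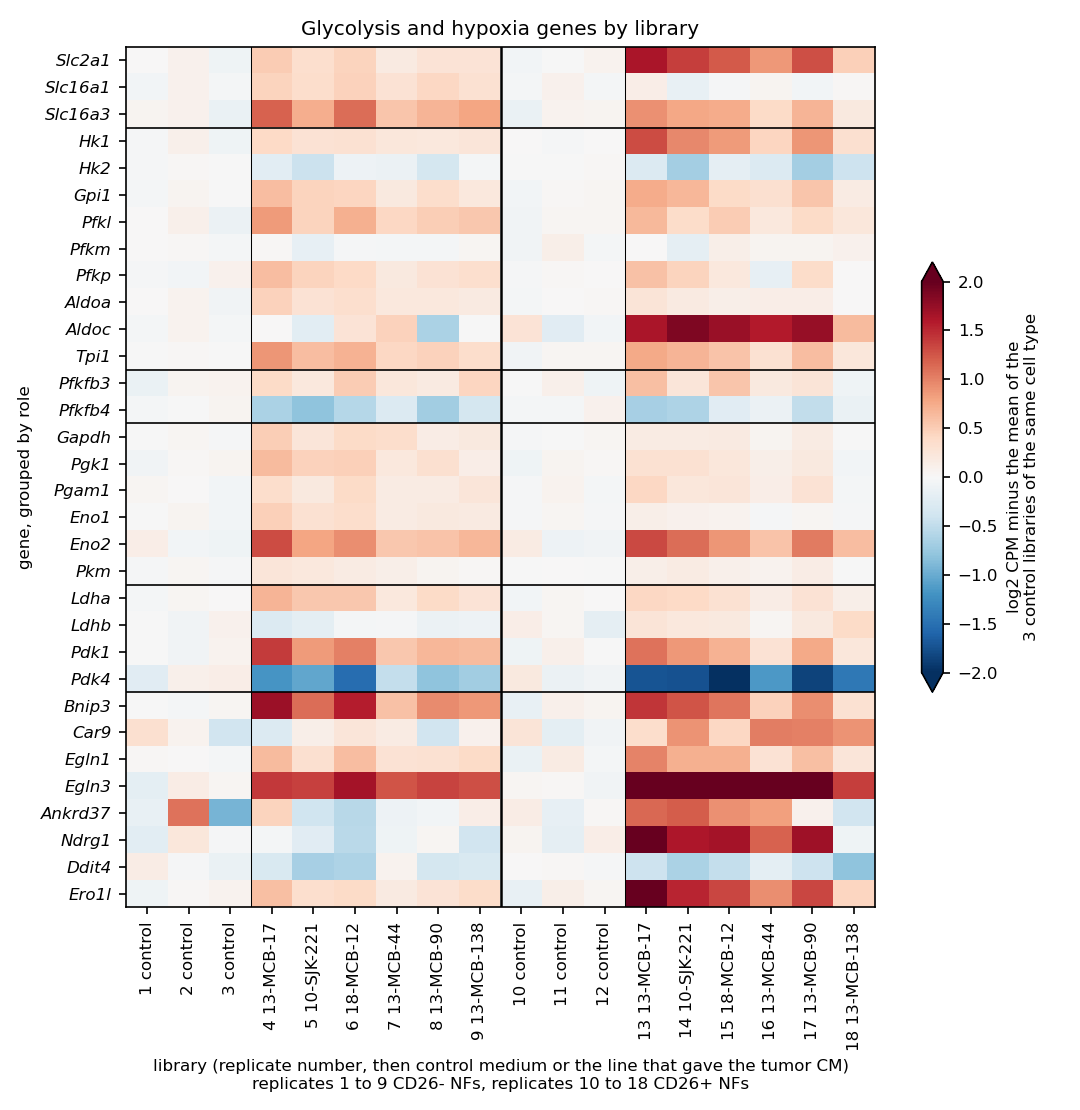
Each cell is the log2 CPM of 1 gene in 1 library minus the mean of the 3 control libraries of the same cell type (color scale cut at -2 and 2), with genes in rows by role and libraries in columns. Most cells of the tumor CM columns are red, Pdk4 and Pfkfb4 are blue in all 12, and in replicate 18 fewer genes lie above the controls (16) than in any other CD26+ CM column (23 to 27).

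Glucose enters fibroblasts largely through Slc2a1 (GLUT1), and lactate leaves through the monocarboxylate transporters Slc16a3 (MCT4) and Slc16a1 (MCT1). Slc2a1 was at 218, 230 and 206 CPM in CD26- controls and at 247 to 311 CPM, median 269, in CD26- CM. In CD26+ NFs it was at 128, 132 and 139 CPM in controls and at 184 to 413 CPM, median 318, in CM. No CM library overlapped the controls of its cell type, yet only the larger change passed: log2 fold change 1.19 ± 0.17 (SE; FDR = 8.11e-05) in CD26+ NFs and 0.34 ± 0.17 (FDR = 0.174) in CD26- NFs. The CD26- change was called in 3 of 25 alternatives, in a fit of these groups alone (FDR = 0.0138), without replicate 18 and without both 13-MCB-138 libraries. The lowest CD26+ CM value, 184 CPM, was that of replicate 18.

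Slc16a3 rose in both cell types. Its levels were 133, 135 and 116 CPM in CD26- controls against 188 to 290 CPM (median 215) with CM, and 232, 267 and 263 CPM in CD26+ controls against 290 to 478 CPM (median 415) with CM. The groups did not overlap, and the log2 fold changes were 0.85 ± 0.15 (FDR = 0.00174) and 0.63 ± 0.15 (FDR = 0.00461). Slc16a1 moved in CD26- NFs, from 54.7, 60 and 55 CPM to between 69.3 and 78.2 CPM, median 73.7 (log2 fold change 0.38 ± 0.06, FDR = 0.00101). In CD26+ NFs it was already higher in controls, at 103, 113 and 103 CPM, and CM libraries between 95.5 and 117 CPM, median 106, lay on both sides of them (log2 fold change 0.00 ± 0.06, FDR = 0.967).

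Upper glycolysis prepares glucose for splitting. Hexokinases Hk1 and Hk2 trap it as glucose 6-phosphate, and they moved in opposite directions in CD26+ NFs. Hk1 was at 147, 144 and 146 CPM in CD26+ controls and 181 to 360 CPM, median 266, in CM, with no overlap (log2 fold change 0.83 ± 0.15, FDR = 0.000581). Hk2, the hexokinase usually counted among HIF targets, was at 122, 123 and 125 CPM in CD26+ controls and fell to between 77.1 and 109 CPM, median 96.9 (log2 fold change -0.40 ± 0.10, FDR = 0.006). In CD26- NFs neither was called. Hk1 was at 188, 204 and 180 CPM in controls and 221 to 252 CPM, median 229, with CM (0.28 ± 0.15, FDR = 0.202). Hk2 was at 98.6, 102 and 99.8 CPM and at 74.5 to 97.4 CPM, median 89.2 (-0.20 ± 0.10, FDR = 0.188). Hk1 was called there in a fit of these groups alone (FDR = 0.00889).

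Of the upper glycolysis genes after hexokinase, Pfkl, Tpi1 and Gpi1 rose in both cell types. Pfkl, the liver-type phosphofructokinase that commits sugar to glycolysis, was at 163, 173 and 149 CPM in CD26- controls and 216 to 291 CPM, median 230, with CM. In CD26+ NFs it was at 277, 301 and 299 CPM and at 338 to 457 CPM, median 378. Neither pair of groups overlapped, and the log2 fold changes were 0.58 ± 0.10 (FDR = 0.00162) and 0.40 ± 0.10 (FDR = 0.00729). Tpi1, which interconverts the triose phosphates, rose by 0.59 ± 0.12 (FDR = 0.00381) in CD26- and 0.54 ± 0.12 (FDR = 0.00265) in CD26+ NFs, and Gpi1, the glucose phosphate isomerase, by 0.38 ± 0.11 (FDR = 0.0268) and 0.48 ± 0.11 (FDR = 0.00361). The CD26- call of Gpi1 was lost without replicate 1, 2, 3 or 4 (FDR up to 0.104). The other phosphofructokinases did not pass with edgeR. The muscle form Pfkm stayed between 29.1 and 37.6 CPM in all 18 libraries, also in the CD26- CM libraries in which muscle genes were higher. The platelet form Pfkp had log2 fold changes of 0.39 ± 0.13 (FDR = 0.0511) and 0.26 ± 0.13 (FDR = 0.132). In CD26- NFs Pfkp was called by DESeq2 and in all in 10 of 25 alternatives (adjusted p down to 0.0131), and in CD26+ NFs without replicate 16 (FDR = 0.0338).

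Aldolases cleave fructose 1,6-bisphosphate. The main form here, Aldoa, was at 885 to 975 CPM in CD26- controls and 1050 to 1280 CPM with CM (log2 fold change 0.28 ± 0.07, FDR = 0.00901), and in CD26+ NFs at 992 to 1030 and 1020 to 1210 CPM (0.14 ± 0.07, FDR = 0.115). Without replicate 3 the CD26- change had an FDR of 0.0725. Aldoc, the form best known from brain, was scarce. It was at 4.36, 4.7 and 4.33 CPM in CD26- controls and 2.87 to 6.15 CPM, median 4.45, in CM, and the groups overlapped (0.03 ± 0.24, FDR = 0.96). In CD26+ NFs it was at 3.56, 2.52 and 2.82 CPM in controls and 4.56 to 10.7 CPM, median 9.4, with CM, without overlap (1.57 ± 0.25, FDR = 0.000174).

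The 2 genes of fructose 2,6-bisphosphate, the strongest activator of phosphofructokinase, did not move together. Pfkfb4 fell in both, from 55.7 to 59.7 CPM to between 32.9 and 47.7 CPM in CD26- NFs (log2 fold change -0.54 ± 0.12, FDR = 0.00704) and from 39 to 42.8 CPM to between 25.5 and 37 CPM in CD26+ NFs (-0.36 ± 0.12, FDR = 0.0385). Its CD26+ call was lost in a fit of these groups alone and without any 1 of replicates 10, 11, 12, 13, 14 and 17 (FDR up to 0.134). Pfkfb3, the form that most favors synthesis of the activator, had log2 fold changes of 0.32 ± 0.12 (FDR = 0.0802) and 0.31 ± 0.12 (FDR = 0.0599), and without replicate 18 both were called, at FDR values down to 0.00834 in CD26+ NFs.

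Of the 6 enzymes of lower glycolysis, which yields ATP and pyruvate, 5 rose with CM in CD26- NFs (7.88% of all genes did) and 2 in CD26+ NFs (15.2% of all genes). None had a called difference in CM effect, except Eno1 where the line was a replicate block (-0.24, FDR = 0.0185). Eno2, the enolase known from neurons, changed most. It was at 16.9, 14.9 and 14.5 CPM in CD26- controls and 22.3 to 38.2 CPM, median 25.5, with CM, and in CD26+ NFs at 27, 22.5 and 22.8 CPM and at 35.5 to 60 CPM, median 46.9. The groups did not overlap in either cell type, and the log2 fold changes were 0.82 ± 0.18 (FDR = 0.00641) and 0.95 ± 0.17 (FDR = 0.000641). The abundant enolase Eno1 rose by 0.29 ± 0.07 (FDR = 0.0081) in CD26- NFs and had 0.04 ± 0.07 (FDR = 0.686) in CD26+ NFs. Pgk1, which makes ATP, rose by 0.38 ± 0.10 (FDR = 0.0143) in CD26- NFs and had 0.19 ± 0.10 (FDR = 0.157) in CD26+ NFs. Pgam1, a mutase, had 0.25 ± 0.08 (FDR = 0.0324) and 0.22 ± 0.08 (FDR = 0.0405), and its CD26+ call was lost in 13 of 25 alternatives (FDR up to 0.154). In CD26- NFs the calls were lost for Pgk1 without replicate 1 (FDR = 0.073), for Eno1 without replicate 3 (FDR = 0.0582) and for Pgam1 without replicate 1, 2, 3, 4 or 6 or without a filter (FDR up to 0.15).

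Gapdh and Pkm are often taken as references. Gapdh rose in CD26- NFs by 0.31 ± 0.07 (FDR = 0.0046), from 127 to 133 CPM to between 144 and 183 CPM, and had 0.11 ± 0.06 (FDR = 0.201) in CD26+ NFs. Pkm, the pyruvate kinase of most cultured cells, had 0.14 ± 0.06 (FDR = 0.097) and 0.10 ± 0.06 (FDR = 0.178) at 1630 to 2120 CPM. Both are uncertain in level. Gapdh has near-identical pseudogene copies, and the 3 in the table that are named after it hold 0.726% as many counts as the gene. Copies under other names were not counted. How reads with several matches were treated is not given in the sources used here, so the share of Gapdh reads lost is unknown. Pkm shares 15.3% of its exon length with Gm49759 on the same strand.

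At the exit of glycolysis, Ldha, which reduces pyruvate to lactate, rose in both cell types. It was at 1180, 1240 and 1220 CPM in CD26- controls and 1410 to 1940 CPM, median 1680, with CM, and at 1400, 1490 and 1460 CPM and 1570 to 1930 CPM, median 1790, in CD26+ NFs. The groups were apart in both, with log2 fold changes of 0.45 ± 0.09 (FDR = 0.00435) and 0.28 ± 0.09 (FDR = 0.028). The CD26+ call was lost without any 1 of replicates 10, 11, 12, 13, 14 and 17, with an FDR of up to 0.114. Ldhb, the form that favors the reverse reaction, had -0.12 ± 0.08 (FDR = 0.294) and 0.21 ± 0.08 (FDR = 0.0594). Its level is uncertain, since a near-identical copy in the table holds 8.2% as many counts.

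The pyruvate dehydrogenase kinases, which close the entry of pyruvate into mitochondria, moved in opposite directions. Pdk1, a HIF target, was at 26.5, 25.5 and 28 CPM in CD26- controls and 38.7 to 70.5 CPM, median 45.1, with CM, and at 64.1, 73 and 68.3 CPM and 79.7 to 145 CPM, median 114, in CD26+ NFs. Pdk4, a kinase known for its rise in fasting and its repression by insulin, was at 33, 41.3 and 42.3 CPM in CD26- controls and 13.4 to 27.9 CPM, median 20.5, with CM. In CD26+ NFs Pdk4 was at 16, 12.9 and 13.3 CPM and at 2.62 to 6.34 CPM, median 4.22. No CM library of either gene reached the control range of its cell type. Without replicate 10 the CD26+ rise of Pdk1 had an FDR of 0.0503. Pdk1 rose by 0.88 ± 0.20 (FDR = 0.00677) and 0.68 ± 0.18 (FDR = 0.01), and Pdk4 fell, with log2 fold changes of -0.92 ± 0.19 (FDR = 0.00374) and -1.67 ± 0.22 (FDR = 3.34e-05).

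Of the 8 hypoxia targets outside glycolysis, 3 rose with CM in the CD26- cultures and none fell, while in the CD26+ cultures 6 went up and 1 went down. The shares of all genes were 7.88% higher and 7.28% lower in CD26-, and 15.2% and 13.4% in CD26+ cultures, and the 3 and the 6 are not a test of a difference between them. Egln3, the prolyl hydroxylase that HIF itself switches on, had the largest change with CM of all 32 genes in CD26+ NFs and in CD26- NFs. It was at 11.1, 14.1 and 13 CPM in CD26- controls and 30.2 to 40.2 CPM, median 32.6, with CM, and at 8.9, 8.82 and 8.24 CPM in CD26+ controls and 22.6 to 83.5 CPM, median 58.6, with CM. All CM libraries lay above the controls. The log2 fold changes were 1.38 ± 0.26 (FDR = 0.00259) and 2.71 ± 0.28 (FDR = 3.32e-06). Egln1, the main oxygen sensor, was at 71.9, 71.3 and 69.2 CPM and 86.6 to 110 CPM (median 90.6) in CD26- NFs and at 99.7, 122 and 106 CPM and 129 to 216 CPM (median 172) in CD26+ NFs. Its groups were apart in both cell types, and it rose by 0.43 ± 0.13 (FDR = 0.0376) and 0.61 ± 0.13 (FDR = 0.00252). Its CD26- call was lost without replicate 1, 2, 3, 4 or 6 (FDR up to 0.136).

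Bnip3, a mitophagy receptor, was at 15.2, 15 and 15.8 CPM in CD26- controls and 23.1 to 50.2 CPM, median 31.3, with CM, and at 36.2, 43.1 and 41.8 CPM and 49.6 to 108 CPM, median 80.8, in CD26+ NFs. It rose without overlap in both, by 1.19 ± 0.26 (FDR = 0.00675) and 0.96 ± 0.24 (FDR = 0.00675). Bnip3 shares 22.3% of its exon length with Gm45507 on the opposite strand. The kit keeps the strand, but the strand setting of the counting is not given in the sources used here.

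The other called targets passed in CD26+ NFs and not in CD26- NFs, where Ero1l was called in a fit of these groups alone (FDR = 0.0156) and Ddit4 without replicate 7 (FDR = 0.0124). Ero1l, the disulfide oxidase of the endoplasmic reticulum, was at 69.7, 83.7 and 79.2 CPM in CD26+ controls and 104 to 347 CPM, median 196, with CM (log2 fold change 1.38 ± 0.25, FDR = 0.000508). In CD26- NFs it was at 67.7, 73.2 and 76 CPM and at 81.7 to 110 CPM, median 92.4 (0.36 ± 0.24, FDR = 0.327). The groups did not overlap in either cell type. Ndrg1, a stress-responsive gene, was at 13.3, 11.3 and 14 CPM in CD26+ controls and 12.1 to 68.2 CPM, median 40, with CM (1.59 ± 0.34, FDR = 0.00217). Only replicate 18, at 12.1 CPM, fell within the controls. In CD26- NFs Ndrg1 was at 35.4, 47.8 and 40.3 CPM and at 28.2 to 42.1 CPM, median 36.7, and the groups overlapped (-0.20 ± 0.30, FDR = 0.695).

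Car9, the carbonic anhydrase used as a stain for hypoxic tumor tissue, was scarce in all libraries. In CD26- NFs it was at 5.42, 4.53 and 3.32 CPM in controls and 3.34 to 5.12 CPM, median 4.65, with CM (log2 fold change 0.00 ± 0.18, FDR = 0.998). In CD26+ NFs it rose from 1.21, 0.889 and 0.965 CPM to between 1.29 and 2.06 CPM, median 1.88 (0.77 ± 0.25, FDR = 0.0251). That call was lost without replicate 11, 12 or 17 and without a filter on low counts, with an FDR of up to 0.117. Ankrd37 held 171 counts over all 18 libraries, too few to settle its log2 fold changes of -0.26 ± 0.40 (FDR = 0.709) and 0.74 ± 0.39 (FDR = 0.168). Ddit4, an inhibitor of mTOR signaling that hypoxia and other stresses induce, went down. It was at 128, 130 and 125 CPM in CD26+ controls and 72.8 to 111 CPM, median 93.9, with CM, without overlap (-0.48 ± 0.13, FDR = 0.0115), and in CD26- NFs at 159, 140 and 131 CPM and at 90 to 150 CPM, median 114, with overlap (-0.34 ± 0.13, FDR = 0.0876).

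The 250 bases before the transcript start are shown for the 3 hypoxia targets that rose in both cell types, for Slc2a1 and, as a gene that fell in both, for Pdk4. They are RefSeq sequences of GRCm38.p6, written 5′ to 3′ on the strand of the gene. Capitals mark the HIF core motif, ACGTG or GCGTG, searched on both strands, so that CACGT and CACGC are matches on the other strand and CACGTG is a pair of overlapping ones. Bnip3 is on chr7:138909507-138909756 (minus strand), Egln3 on chr12:54203875-54204124 (minus), Egln1 on chr8:124949255-124949504 (minus), Slc2a1 on chr4:119108495-119108744 (plus) and Pdk4 on chr6:5496279-5496528 (minus).
Bnip3: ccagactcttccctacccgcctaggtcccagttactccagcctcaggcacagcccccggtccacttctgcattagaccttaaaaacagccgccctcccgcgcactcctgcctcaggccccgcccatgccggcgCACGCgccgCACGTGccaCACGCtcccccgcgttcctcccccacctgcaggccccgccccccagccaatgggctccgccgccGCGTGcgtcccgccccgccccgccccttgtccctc
Egln3: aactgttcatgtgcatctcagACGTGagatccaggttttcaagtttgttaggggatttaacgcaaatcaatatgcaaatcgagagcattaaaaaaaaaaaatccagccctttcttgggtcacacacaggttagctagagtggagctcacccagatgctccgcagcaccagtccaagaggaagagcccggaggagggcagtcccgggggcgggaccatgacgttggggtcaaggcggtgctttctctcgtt
Egln1: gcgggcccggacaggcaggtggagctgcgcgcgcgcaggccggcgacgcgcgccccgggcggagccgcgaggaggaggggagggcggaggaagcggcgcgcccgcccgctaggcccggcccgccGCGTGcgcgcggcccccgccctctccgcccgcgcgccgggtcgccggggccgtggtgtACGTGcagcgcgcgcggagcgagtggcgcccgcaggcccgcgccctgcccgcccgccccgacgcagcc
Slc2a1: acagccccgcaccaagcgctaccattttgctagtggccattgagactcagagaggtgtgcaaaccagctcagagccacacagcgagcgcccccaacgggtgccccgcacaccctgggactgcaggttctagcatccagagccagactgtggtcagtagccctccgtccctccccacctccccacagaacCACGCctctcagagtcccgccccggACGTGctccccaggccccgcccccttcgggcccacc
Pdk4: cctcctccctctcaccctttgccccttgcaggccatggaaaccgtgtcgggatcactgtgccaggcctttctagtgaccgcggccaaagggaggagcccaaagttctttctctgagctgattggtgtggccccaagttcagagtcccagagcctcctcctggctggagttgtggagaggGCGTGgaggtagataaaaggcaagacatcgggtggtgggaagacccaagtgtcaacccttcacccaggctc

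Bnip3 held 5 matches in this stretch, Egln1 and Slc2a1 held 2 each, and Egln3 and Pdk4 held 1 each. Of the 31 member genes with an entry in the sequence table, 28 had a match in at least 1 of their start windows, and by window 36 of 44 (81.8%) held one, against 38.6% of all 32851 windows. The 3 without a match were Gpi1, Tpi1 and Eno2, all of which rose with CM in both cell types. The members include genes chosen as known hypoxia targets, and windows of like base content were not compared. Matches are given as a description of the sequence, no binding was measured, and control by HIF was not tested.

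**Figure D2:**
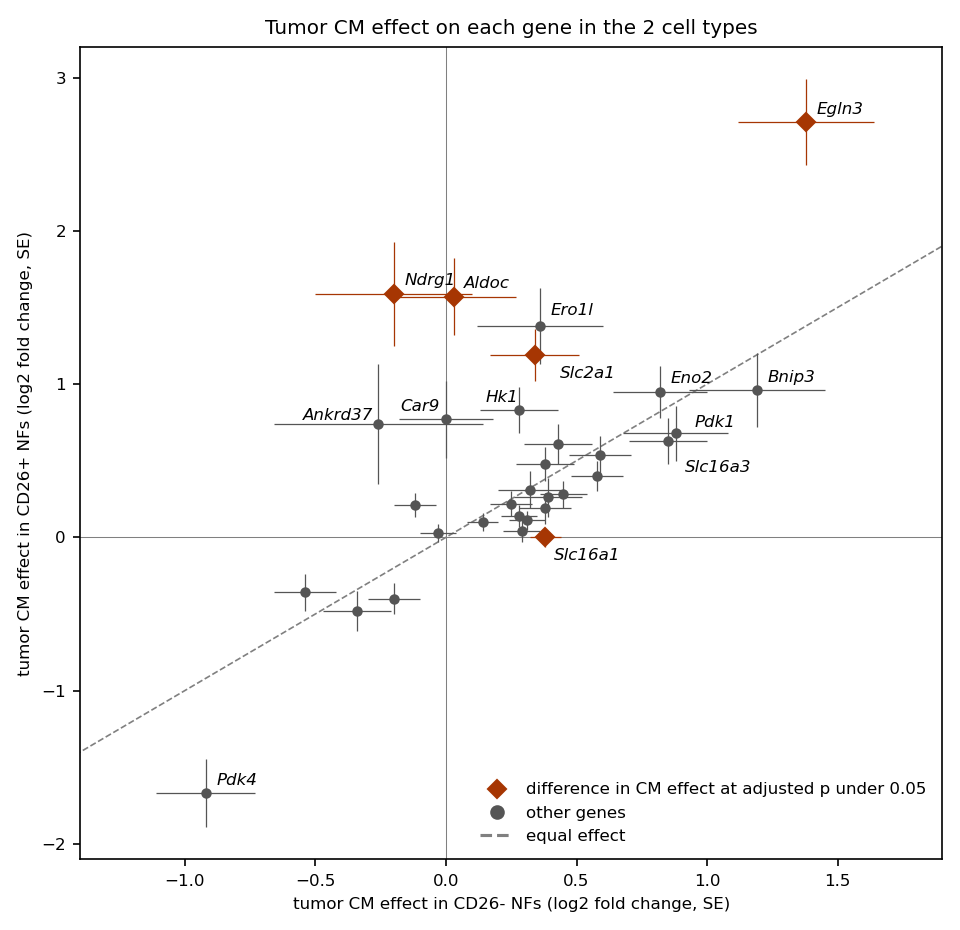
Each point is 1 gene, with the log2 fold change of tumor CM over control in CD26- NFs on the horizontal axis and in CD26+ NFs on the vertical axis, bars of 1 SE, and names for genes whose change exceeds 0.7 in either cell type or whose effect differs. Egln3, Ndrg1, Aldoc and Slc2a1 lie above the dashed line of equal effect and Slc16a1 below it, and Bnip3, Pdk1, Eno2 and Slc16a3 lie close to it.

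Whether CM acted differently in the cell types was tested as the difference between the CM effects (CD26+ minus CD26-). It was positive and called for 4 of the 32 genes, against 4.53% of all tested genes, and negative for 1, against 3.01%. No member was past a log2 difference of 2 (0.392% of all genes). At the FDR alone edgeR called 5 and DESeq2 called 7, and 12 had an unadjusted p under 0.05. The differences were 1.79 ± 0.45 (FDR = 0.0229) for Ndrg1, 1.55 ± 0.34 (FDR = 0.0135) for Aldoc, 1.33 ± 0.37 (FDR = 0.0368) for Egln3, 0.85 ± 0.23 (FDR = 0.0334) for Slc2a1 and -0.38 ± 0.09 (FDR = 0.0147) for Slc16a1. The median difference over the 32 genes was -0.04, beside 0.01 over all genes. For 3 genes that rose in both cell types it was -0.22 ± 0.35 (FDR = 0.739) for Bnip3, -0.20 ± 0.26 (FDR = 0.693) for Pdk1 and -0.05 ± 0.16 (FDR = 0.898) for Tpi1. These SEs do not show that the effects are equal.

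The calls, more than the sizes, moved with the libraries in the fit. Without replicate 11, a CD26+ control, none of the 32 genes was called by edgeR, with FDR values of 0.0584 for Slc16a1 and Aldoc, 0.0795 for Ndrg1 and 0.0961 for Egln3 and Slc2a1, while the share of all genes called went from 7.53% to 2.33%. The differences were then 1.43 for Aldoc, 1.33 for Egln3, 1.69 for Ndrg1, 0.83 for Slc2a1 and -0.35 for Slc16a1. Without replicate 18 there were 7 calls, with 16.4% of all genes called. Leaving out any 1 of replicates 1, 2, 3, 8, 10, 12, 14, 15 or 17 left 2 or 3 genes called, with 3.13% to 6.58% of all genes. Since each line fed both cell types, the line can serve as a replicate block, and with it 9 genes were called, 6 of them positive, while the share of all genes called rose to 17.6%. All 5 were among them, and Ero1l (0.94, FDR = 0.0131), Hk1 (0.51, FDR = 0.0264), Eno1 (-0.24, FDR = 0.0185) and Pdk4 (-0.74, FDR = 0.00515) were added. Without a block these 4 had FDR values of 0.0657, 0.104, 0.104 and 0.124. These 5 genes are Slc2a1 (ENSMUSG00000028645) at chr4:119108711-119137983, Slc16a1 (ENSMUSG00000032902) at chr3:104638668-104658462, Aldoc (ENSMUSG00000017390) at chr11:78322968-78327781, Egln3 (ENSMUSG00000035105) at chr12:54178981-54203860 and Ndrg1 (ENSMUSG00000005125) at chr15:66929318-66969640 (GRCm38). The proliferation genes, of which 2 of 9 also had a called difference in CM effect (median -0.84), moved beside these differences, and their part was not tested.

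**Figure D3:**
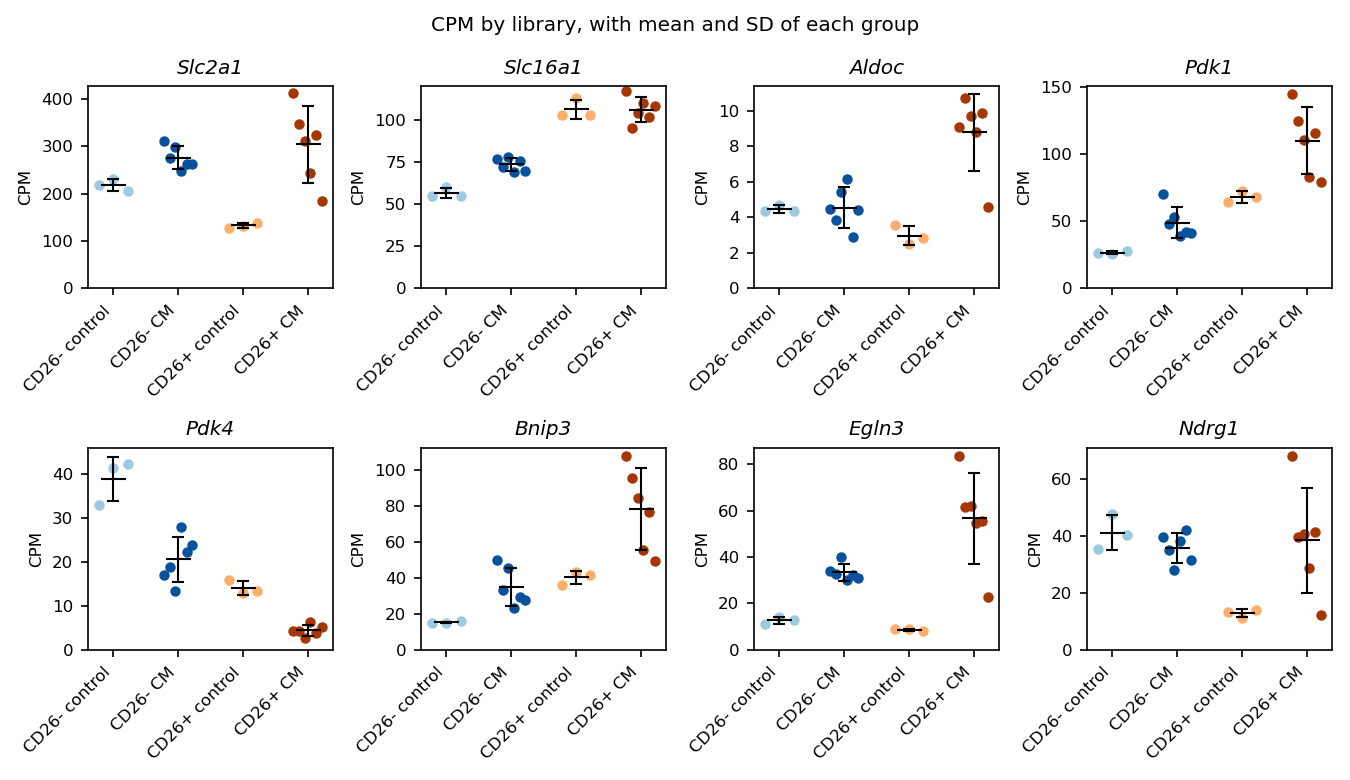
Points are CPM of single libraries for 8 genes (linear axis from 0, 1 panel per gene), with the mean and SD of each group: 3 control and 6 CM libraries of CD26- and of CD26+ NFs. Slc2a1, Aldoc, Egln3 and Ndrg1 start lower in CD26+ than in CD26- controls and reach or pass the CD26- CM level, with 1 low CM point in each, which is replicate 18. The lower start was called for Slc2a1 and Ndrg1 but not for Aldoc (FDR = 0.1) or Egln3 (FDR = 0.153). Bnip3 and Pdk1 rise from a higher start in CD26+ NFs, and Pdk4 falls from a lower one.

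The cell types differed before any tumor CM. In control medium 14 of the 32 genes were higher in CD26+ than in CD26- NFs, against 25.0% of all genes, and 6 were lower, against 25.4%. Past a log2 difference of 2 there was 1 member, Car9, against 5.97% of all genes. Among the genes higher in CD26+ NFs were Bnip3 (1.39 ± 0.29, FDR = 0.00069), Pdk1 (1.36 ± 0.22, FDR = 5.64e-05), Slc16a3 (0.99 ± 0.17, FDR = 0.000125), Slc16a1 (0.91 ± 0.07, FDR = 3.75e-08) and Pfkl (0.86 ± 0.12, FDR = 1.01e-05). Lower were Car9 (-2.09 ± 0.25, FDR = 2.59e-06), Ndrg1 (-1.68 ± 0.37, FDR = 0.00111), Pdk4 (-1.47 ± 0.23, FDR = 4.11e-05), Slc2a1 (-0.71 ± 0.19, FDR = 0.00466), Ldhb (-0.69 ± 0.09, FDR = 7.39e-06) and Pfkfb4 (-0.51 ± 0.14, FDR = 0.00629). Car9, Ndrg1 and Slc2a1 were thus lower where Bnip3 and Pdk1 were higher. The counts moved with the fit. A fit of these 2 groups alone called 16 genes higher and 11 lower, with 59.8% of all genes called. Without replicate 1, 3 or 11, 9 were higher and 6 lower, with 42.1% to 44.9% of all genes called. Epithelial markers were higher in the same CD26- libraries and fibroblast and adipocyte markers in the CD26+ libraries, and their part in these differences was not tested.

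In tumor CM the same comparison gave 14 higher and 6 lower genes, against 29.3% of all genes in each direction, and 1 past a log2 difference of 2, Pdk4, against 4.16%. Pdk4 was at 13.4 to 27.9 CPM in CD26- and 2.62 to 6.34 CPM in CD26+ libraries (-2.21 ± 0.19, FDR = 2.99e-08). Pdk1 (1.16 ± 0.15, FDR = 3.21e-06), Bnip3 (1.17 ± 0.19, FDR = 5.25e-05), Ero1l (1.12 ± 0.19, FDR = 6.92e-05) and Aldoc (0.96 ± 0.18, FDR = 0.000247) led the genes higher in CD26+ NFs. Slc2a1, lower in CD26+ controls, was not called here (0.14 ± 0.13, FDR = 0.384), nor was Ndrg1 (0.11 ± 0.25, FDR = 0.731), while Car9 stayed lower (-1.32 ± 0.16, FDR = 2.22e-06). With the line as a replicate block, 23 genes were called in place of 20 (63% of all genes in place of 58.6%), and Pgk1 (0.15, FDR = 0.00544), Ldha (0.10, FDR = 0.0303) and Pfkfb3 (0.20, FDR = 0.0307) were added. In the same CM libraries all 9 proliferation genes (median log2 difference -0.92) and all 8 tested skeletal muscle genes (median -5.72) were lower in CD26+ than in CD26- NFs, and their part was not tested. Comparisons within 1 cell type, between cell types and of the differences share libraries and are not independent of each other.

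Levels can be compared between genes only per length. Divided by the length of the merged exons in GENCODE vM21, whose starts and ends for all 32 genes equal those in the table, CD26- control levels were highest for Ldha (366 ± 9.09 CPM per kb, SD, n = 3), Pkm (356 ± 7.68), Aldoa (321 ± 15.5) and Eno1 (206 ± 7.73), and lowest for Aldoc (1.37 ± 0.0625) and Ankrd37 (0.495 ± 0.349). The first 2 did not differ beyond their spread. Merged exons of all annotated transcripts can be longer than the transcripts present, which were not measured, so the order is approximate. Eno1 had more CPM than Aldoa (means 1110 and 933 CPM) and fell below it through its longer merged exons (5379 against 2911 bases). Among the transporters, Slc2a1 stood at 62.2 ± 3.42, Slc16a3 at 24.1 ± 1.94 and Slc16a1 at 12.8 ± 0.669 CPM per kb. In CD26+ controls Slc16a3, at 47.8 ± 3.59, was above Slc2a1, at 37.9 ± 1.59. Ddit4, at 81.5 ± 8.03, was the most abundant hypoxia target of CD26- controls, while Bnip3 (6.75 ± 0.171) and Egln3 (4.77 ± 0.563), the pair that rose most with CM in CD26- NFs, stood far below the main enzymes. Pdk4 was above Pdk1 in CD26- controls, at 11.1 ± 1.46 against 3.42 ± 0.161 CPM per kb, and below it in CD26+ controls, at 4.02 ± 0.487 against 8.81 ± 0.575.

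CM of the 6 tumor lines gave different levels of some of these genes. An F test of the line terms over the 12 CM libraries, with cell type as a covariate, called 9 of the 32 genes, against 6.62% of all tested genes. They were Pdk4 (FDR = 0.0146), Pdk1 (FDR = 0.0156), Bnip3 (FDR = 0.0159), Pfkl (FDR = 0.0216), Pfkfb4 (FDR = 0.0267), Tpi1 (FDR = 0.027), Gpi1 (FDR = 0.0313), Pgk1 (FDR = 0.0349) and Eno2 (FDR = 0.0445), and the first 4 passed at 0.025. On simulated counts this test made somewhat more false calls than its nominal level, so its calls are worded with care. Each is lost without at least 1 library, and without replicate 16 none is called by edgeR, with FDR values from 0.0551 for Pdk4 to 0.136 for Eno2 and 2.88% of all genes called. Without replicate 9 there are 21 calls (14.6% of all genes) and without replicate 18 there are 17 (10.2% of all genes).

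Bnip3 shows the order of the lines. In CD26- NFs it was at 50.2 CPM with CM of 13-MCB-17, 45.6 with 18-MCB-12, 33.1 with 10-SJK-221, 29.5 with 13-MCB-90, 27.9 with 13-MCB-138 and 23.1 with 13-MCB-44. In CD26+ NFs the values in the same order of lines were 108, 84.8, 95.8, 76.8, 49.6 and 55.7 CPM. Line 13-MCB-17 was highest and lines 13-MCB-138 and 13-MCB-44 were the lowest pair in both. Pdk1 was also highest with 13-MCB-17 in both, at 70.5 and 145 CPM.

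Over the mean of both cell types, 13-MCB-17 was the highest line for 22 of the 32 genes and 13-MCB-138 the lowest for 16. The highest line was the same in CD26- and CD26+ NFs for 19 genes and the lowest line for 11. These counts were not made over all genes, so they are not a result about these genes. Slc2a1, Gpi1, Ldha and Bnip3 were lowest with 13-MCB-138 in CD26+ NFs but with 13-MCB-44 in CD26- NFs. Aldoa, Tpi1, Pgk1 and Pkm were lowest with 13-MCB-138 in both. Pdk4 ran differently: it was lowest with 18-MCB-12 (13.4 and 2.62 CPM) and highest with 13-MCB-44 (27.9 and 6.34 CPM). Compared with the controls, replicate 13 (13-MCB-17) had 27 genes above all 3 CD26+ controls and a median log2 difference of 0.59, and replicate 18 (13-MCB-138) had 16 and 0.10, while between 33.5% and 38.5% of all genes were above the controls in these 2 libraries. In CD26- NFs the numbers were closer, 23 genes and 0.47 with 13-MCB-17 and 22 genes and 0.22 with 13-MCB-138, beside 35.9% and 32.7% of all genes above the controls. Without both 13-MCB-138 libraries 24 genes were called for CM in CD26+ and 21 in CD26- NFs, in place of 21 and 18, and the shares of all genes called went from 28.6% to 35.2% and from 15.2% to 20.3%.

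**Figure D4:**
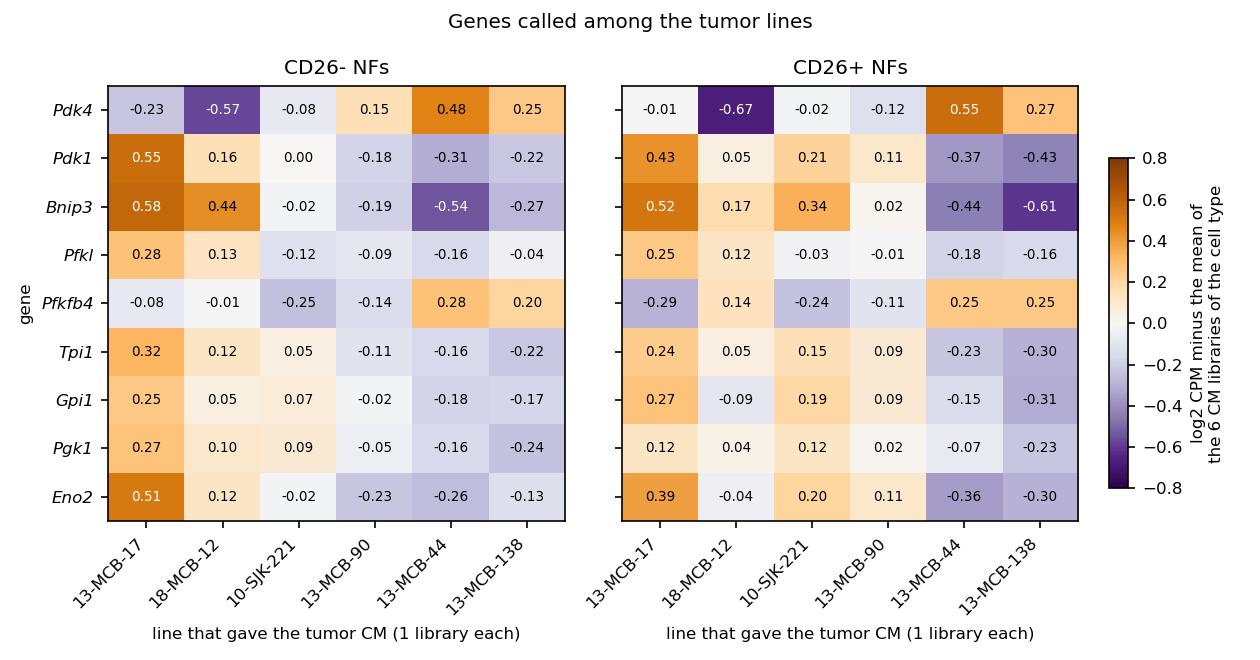
Each cell is the log2 CPM of 1 of the 9 genes called among lines, in 1 CM library, minus the mean of the 6 CM libraries of the cell type, with lines in columns and CD26- and CD26+ NFs in separate panels. 13-MCB-17 is positive for 7 genes in both panels, 13-MCB-44 and 13-MCB-138 are negative for the same 7, and Pdk4 and Pfkfb4 are positive with these last 2 lines.

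The genes around the pathway give context. Among the HIF components, Hif1a, the alpha subunit present in most cells, was at 201 to 216 CPM in CD26- controls and 253 to 319 CPM with CM (log2 fold change 0.38 ± 0.08, FDR = 0.00462), and in CD26+ NFs at 339 to 379 and 350 to 443 CPM (0.11 ± 0.08, FDR = 0.32). Epas1, which encodes HIF-2 alpha, was at 24.9 to 34.3 CPM in CD26+ controls and 62.6 to 111 CPM with CM (1.67 ± 0.19, FDR = 8.5e-06), and in CD26- NFs at 10.5 to 13 and 13.3 to 21.2 CPM (0.52 ± 0.21, FDR = 0.0994). The difference between the effects on Epas1 was 1.15 ± 0.28 (FDR = 0.0192). RNA levels say nothing of HIF protein, whose amount oxygen sets. Of 10 tested HIF components, 4 were called in CD26- NFs (2 higher and 2 lower with CM) and 4 in CD26+ NFs (3 higher and 1 lower), with medians of 0.09 and 0.07. Of all genes, 7.88% were higher and 7.28% lower in CD26- NFs, and 15.2% and 13.4% in CD26+ NFs.

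Of 22 other hypoxia targets, 7 were higher and 3 lower with CM in CD26- NFs, and 14 were higher and 1 lower in CD26+ NFs. Over all genes the shares were 7.88% and 7.28% in CD26- and 15.2% and 13.4% in CD26+ NFs. The list had median log2 fold changes of 0.39 and 0.50. Adm, the vasodilator adrenomedullin, led, at 15.8 to 23.1 CPM in CD26- controls against 64.1 to 118 CPM with CM (2.31 ± 0.40, FDR = 0.00142) and 7.79 to 10 CPM in CD26+ controls against 36.9 to 237 CPM (3.99 ± 0.45, FDR = 6.79e-06). Vegfa, the angiogenic factor, was at 216 to 237 CPM in CD26+ controls and 396 to 672 CPM with CM (1.30 ± 0.14, FDR = 4.64e-06), and at 336 to 373 and 427 to 484 CPM in CD26- NFs (0.35 ± 0.13, FDR = 0.089), a difference of 0.96 ± 0.19 (FDR = 0.00656). As with Slc2a1 and Egln3, the lowest CD26+ CM value of Adm and of Vegfa was that of replicate 18.

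Of 16 tested glycolytic isoenzymes and sugar transporters outside the list, 2 were higher with CM in CD26- NFs, and in CD26+ NFs 3 were higher and 1 was lower, counts that lie near the shares of all genes (7.88% and 15.2% higher) and are not a result about these genes. Eno3, the muscle enolase, rose in both, by 1.23 ± 0.16 (FDR = 0.000214) in CD26- NFs, where muscle genes rose as well, and by 1.35 ± 0.18 (FDR = 3.38e-05) in CD26+ NFs, where they did not pass. Bpgm, which makes 2,3-bisphosphoglycerate, rose in CD26+ NFs (1.45 ± 0.20, FDR = 5.85e-05) and had -0.23 ± 0.18 (FDR = 0.427) in CD26- NFs. Of 7 pentose phosphate genes 2 rose in CD26- and 4 in CD26+ NFs, none by more than 0.48.

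Genes that oxidize pyruvate are read against the same shares of all genes, 7.88% higher and 7.28% lower with CM in CD26- NFs and 15.2% and 13.4% in CD26+ NFs. Of 16 citric acid cycle genes edgeR and DESeq2 called none in CD26- NFs, and none had an unadjusted p under 0.05. In CD26+ NFs 2 fell and none rose by edgeR, DESeq2 called 7, and 7 had an unadjusted p under 0.05. Their medians were 0.01 and -0.09. Of 12 genes of pyruvate entry into mitochondria edgeR called none in CD26- NFs, where DESeq2 called 1 and 2 had an unadjusted p under 0.05, and in CD26+ NFs 1 was higher and 4 were lower with CM, among them Mpc2, a subunit of the mitochondrial pyruvate carrier (-0.42 ± 0.11, FDR = 0.00822). None of 4 tested hexosamine genes was called by edgeR or DESeq2 in either cell type, with 2 at an unadjusted p under 0.05 in each.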

How the data were processed

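Polyadenylated RNA of 18 cultures was sequenced single-end from stranded libraries per the labels. The authors deposited raw counts per Ensembl gene, 1 column per library, with GRCm38 coordinates. The submitters' processing notes name HISAT2 2.1.0 and HTSeq. The strand setting and the annotation release are not given in the sources used here. No column was left without a sample, and 1 entry without a gene held 0 counts (a share of 0) and was left out. The labels give no batch. Part of the genotype of the tumor model is not reported here.

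Genes were filtered with filterByExpr by group, which left 14273 of 55486 genes, and tested after TMM scaling with edgeR 4.0.16 under R 4.3.3 (glmQLFit, glmQLFTest; 1 term per group over all 18 libraries). The common biological coefficient of variation was 0.117. SE is the log2 fold change divided by the square root of F. Values per library are CPM over TMM-scaled library sizes, and log2 CPM used a prior count of 2. Where a symbol had several entries, the one with the most counts was used. Between any pair of replicates, counts differed by a chi-square of at least 3.05 per degree of freedom, more than sampling noise gives. With groups of 3 and 6 libraries, counting error is small for all but the rarest genes, and the number of cultures limits precision.

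The labels give both cell types CM of the same 6 lines. Residuals of the paired libraries had correlations between 0.247 and 0.406. Pairs of different lines were not compared, so the pairing rests on the labels. An alternative fit held line terms as a replicate block. The tests were run on simulated counts first. On these counts the group test held its nominal level, and the line test exceeded it somewhat. A threshold of 0.025 was therefore added for the line test after the data had been seen. The simulation gave each gene the same dispersion in all groups. In the data some genes spread far more with CM, as did Slc2a1 in CD26+ NFs (SD 5.58 CPM in controls and 80.4 CPM in CM). The level of the group test under such unequal spread was not tested.

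The members, gene lists, tests and alternatives were chosen with earlier results of these data known. All 32 members could be named, library values were given for the 10 with the smallest p over both CM effects and their difference and for 10 further genes of the pathway, and other lists contributed at most 3 called genes a comparison whose mean reached 5 CPM in some group, plus Hif1a, Epas1 and Vegfa. Alternatives were DESeq2 1.42.0 (the study's tool), RLE and upper-quartile scaling, no filter, a minimum of 5 CPM, fits of the 2 groups alone, a log2 limit of 2, leaving out each library or both of line 13-MCB-138, and the block.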

Additional observations from a re-analysis of the deposited data

Results flagged for a closer look

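The response to tumor CM differed between the cell types, by the test of the difference itself, for Slc2a1 (log2 difference 0.85, CD26+ minus CD26-), Slc16a1 (-0.38), Aldoc (1.55), Egln3 (1.33) and Ndrg1 (1.79).

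In 3 of 64 pairs of a gene and a CM group of 6 libraries, the most extreme library stood apart by more than Dixon's 95% critical value for the gap over the range, where chance flags about 1 in 20. All were the lowest CD26+ CM library. Replicate 18, given CM of line 13-MCB-138, was lowest for Aldoc (ratio 0.767) and Egln3 (0.679), and replicate 14, given CM of line 10-SJK-221, was lowest for Pfkm (0.629). Replicate 18 was also the CD26+ CM library with the highest summed proliferation markers, 998 CPM. The part of that in its values was not tested.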

How the results depend on the processing

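No result changed direction with a call under any alternative. Of 4593 values of single genes recomputed, 4272 kept their side of the threshold, 206 lost a call and 115 gained one. With the added limit of a log2 fold change beyond 2, the number of the 32 genes called was 0 for CM in CD26- NFs, 1 in CD26+ NFs, 1 between the cell types in control medium, 1 between them in tumor CM, and 0 for the difference between both CM effects. With the line as a replicate block, 9 genes were called for the difference in place of 5 (17.6% of all genes in place of 7.53%), and 23 in place of 20 for the cell types in tumor CM (63% in place of 58.6%). For the differences among lines, 9 calls (6.62% of all genes) became 15 with DESeq2 (9.8%), 20 without a filter on low counts (7.49%), 17 without both libraries of line 13-MCB-138 (9.97%) and 4 at an adjusted p under 0.025 (3.74%), the last of which was chosen after seeing the data. The cause of these shifts was not tested.

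Leaving out 1 library at a time moved the calls over all genes as well. For CM in CD26- NFs it gave 13 calls without replicate 3 (5.69% of all genes) to 21 without replicate 18 (17.9%). In CD26+ NFs the range was 17 calls without replicate 11, 12 or 17 (19% to 24.8%) to 23 without replicate 16 (29.3%). Between cell types in control medium it was 15 calls without replicate 1, 3 or 11 (42.1% to 44.9%) to 23 without replicate 18 (52.4%). In tumor CM it was 18 calls without replicate 7, 8, 14 or 17 (55.3% to 57.2%) to 23 without replicate 18 (59.3%). The difference in CM effect had 0 calls without replicate 11 (2.33%) to 7 without replicate 18 (16.4%). Among lines there were 0 calls without replicate 16 (2.88%) to 21 without replicate 9 (14.6%). Each line has 1 library per cell type, so that 1 library carries much of a line's value. Between cell types, calls lost without 1 library were those of Hk2, Tpi1, Gapdh, Pgk1, Eno2 and Ldha in control medium and of Gpi1, Pfkm and Ddit4 in tumor CM. Rare genes such as Ankrd37 and Car9 are also limited by their counts.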
